A study of Mus musculus with 10 samples.

Results

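The genes of MHC class I antigen presentation were followed in lung group 2 innate lymphoid cells (ILC2) with and without the transcription factor c-Maf. The members are the rows of 10 gene symbols, chosen by name, of 54838 genes in the deposited table: H2-K1, H2-D1, H2-M3, H2-T23, B2m, Tap1, Tap2, Tapbp, Erap1 and Nlrc5. ILC2 are tissue lymphocytes without antigen receptors that secrete type 2 cytokines. They were sorted from the lungs of C57BL/6 mice, either c-Maf KO or WT cohoused littermates, after lung inflammation induced with papain, a protease allergen. The sort took lineage-negative, CD90.2-positive cells whether or not they carried ST2 and KLRG1, and total RNA of 5 KO and 5 WT samples was sequenced. The labels do not give the age of the mice, nor how or in which cells Maf was deleted. Libraries are numbered 1 to 5 within each genotype in the order of the records, and the numbers pair nothing. Since no label states that every library is a mouse of its own, p-values cover the spread among these samples, which may be technical.

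MHC class I molecules show short peptides from inside the cell to CD8 T cells and to receptors of natural killer cells. A polymorphic heavy chain (H2-K and H2-D in mice of this strain) pairs with beta-2 microglobulin. Its peptide is cut by proteasomes, carried into the endoplasmic reticulum by the transporter TAP, trimmed there by ERAP1 and loaded with the help of tapasin. NLRC5 is a transactivator of class I heavy chain genes that acts through a conserved promoter module, beside an NF-kappa B element and an interferon response element.

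The promoter sequences of 3 heavy chain genes, H2-K1, H2-D1 and H2-M3, are shown first. Whether their motifs bear on the counts was not tested. Each is the 250 bases before the RefSeq transcript start (GRCm38.p6), 5′ to 3′ along the gene's own strand. H2-K1 is at chr17:34000348-34000597 (minus strand), H2-D1 at chr17:35262844-35263093 (plus strand) and H2-M3 at chr17:37269984-37270233 (plus strand). Capitals mark exact matches on either strand to 4 motifs: GGGGATTCCCC (the kappa B site of enhancer A), TTTCACTTCT (interferon response), TGACGC (the core of the X2 box) and CCAAT (the CCAAT box, printed as ATTGG where it lies on the other strand). None of the matches overlaps another.
H2-K1: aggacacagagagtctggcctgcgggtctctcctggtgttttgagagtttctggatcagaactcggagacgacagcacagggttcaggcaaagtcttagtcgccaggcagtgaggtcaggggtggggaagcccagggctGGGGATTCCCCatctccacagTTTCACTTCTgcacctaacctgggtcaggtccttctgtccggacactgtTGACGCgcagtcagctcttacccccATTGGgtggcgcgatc
H2-D1: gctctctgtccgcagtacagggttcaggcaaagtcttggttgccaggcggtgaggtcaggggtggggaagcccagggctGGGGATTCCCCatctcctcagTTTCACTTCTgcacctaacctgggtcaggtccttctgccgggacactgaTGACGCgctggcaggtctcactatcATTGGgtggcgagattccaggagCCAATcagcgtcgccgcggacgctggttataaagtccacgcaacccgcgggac
H2-M3: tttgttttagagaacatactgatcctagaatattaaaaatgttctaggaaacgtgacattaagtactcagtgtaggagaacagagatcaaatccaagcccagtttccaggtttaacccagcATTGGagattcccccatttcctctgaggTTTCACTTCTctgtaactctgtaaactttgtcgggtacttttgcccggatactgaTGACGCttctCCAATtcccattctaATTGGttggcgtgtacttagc
The longer motif strings were read from the H2-K1 window itself and all were chosen after the sequences had been seen, so their presence in H2-K1 and H2-D1 is a description. The kappa B site lies at −111 to −101 in H2-K1 and at −171 to −161 in H2-D1, and is not matched in the H2-M3 window. All of the 4 motifs occurred together in 3 of 32851 promoter windows of that length (0.00913%), which belong to H2-K1 and H2-D1 alone. One by one, GGGGATTCCCC was in 0.0304% of the windows, TTTCACTTCT in 0.131%, TGACGC in 6.12% and CCAAT in 33.8%. Of the 8 members with a RefSeq promoter entry (all but Tap2 and Nlrc5), 2 held the kappa B site, 3 the interferon response motif, 3 TGACGC and 7 CCAAT. A match names letters in a window and no bound factor.

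**Figure D1:**
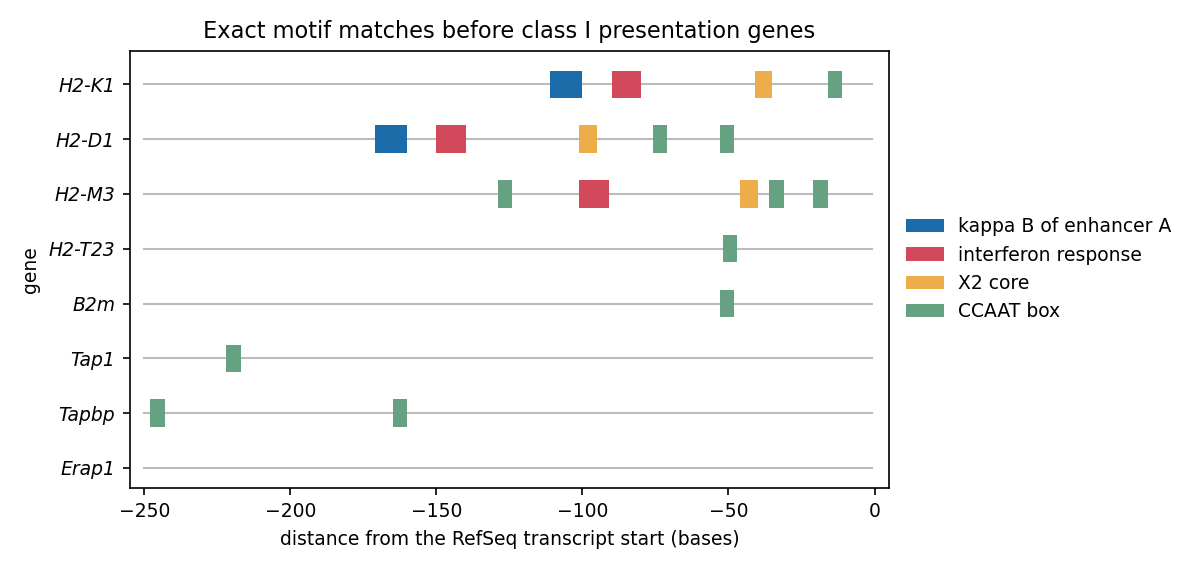
Exact matches to 4 motifs in the 250 bases before the RefSeq start of 8 class I presentation genes (x axis, distance from the start in bases; 1 row per gene; coloured boxes, matches on either strand). H2-K1 and H2-D1 carry all 4 in the same order, H2-M3 carries 3 of them, and Erap1 carries none.

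The KO libraries were shallower than the WT libraries and unlike each other. They held 3620002 to 9867580 counts in KO and 21400938 to 24489987 in WT, with at least 1 count for 4052 to 7660 genes in KO and 10577 to 12744 in WT. In KO library 1 the 100 most counted genes took 93.43% of all counts, against 49.1 to 57.85% in the other KO libraries and 48.82 to 61.01% in WT. Scaling by TMM, which sets libraries to a common level through the bulk of their genes, gave factors of 0.1846 to 0.8722 in KO and 1.499 to 1.942 in WT. ILC2 identity was visible in both genotypes. Of 10 ILC2 markers, 8 had more than 3 counts in every KO library and 10 in every WT library. Their summed level was 751.9 (KO library 1) to 15722 CPM in KO and 5729 to 9230 CPM in WT. These are CPM by library size (counts scaled to a common library total), without the TMM factors.

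Markers of other cells also differed between libraries. Their sums are again CPM by library size, without the TMM factors. Red cell genes summed to 107.2 to 190301 CPM in KO, highest in library 1, and to 9.099 to 24.97 CPM in WT, with 5 of 6 detected and Alas2 at 0. Macrophage and dendritic cell genes, which present antigen strongly, summed to 0.6306 to 2298 CPM in KO, highest in library 4, and to 247.5 to 1002 CPM in WT. Of those 8 genes, 1 had more than 3 counts in any KO library and 6 in any WT library. T cell genes summed to 0.6607 to 23.51 CPM in KO and 17.66 to 129.9 CPM in WT, with Cd8a at 0, and B cell genes to 0 to 200.6 CPM in KO and 24.95 to 171.8 CPM in WT, with Ms4a1 at 0. NK cell genes were at 0 in KO and summed to 0 to 9.494 CPM in WT. Epithelial, endothelial and stromal genes summed to 0 to 563.3 CPM in KO and 47.52 to 165.8 CPM in WT, with Sftpc and Cdh5 at 0. The part of these other cells in the class I values was not tested. In bulk RNA, fewer cells of a type and less RNA per cell cannot be told apart.

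Maf, the targeted gene, had 0, 0, 0, 108 and 0 counts in KO libraries 1 to 5 and 3252, 3832, 1412, 1696 and 2727 in WT libraries 1 to 5. Which part of the gene was removed is not stated in the labels. Every KO library was below every WT library (2.98 ± 6.66 against 62.1 ± 24.1 CPM, TMM-scaled, SD, n = 5 each). The edgeR log2 fold change was −4.34 (SE 2.06, adjusted p = 0.141), a value that KO library 4 decided: without it the fitted change was −13.61 with an adjusted p of 0.00525.

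The classical heavy chains H2-K1 and H2-D1 could be read in all 10 libraries, and 6 other members in most WT libraries but in at most 3 KO libraries each. A gene is called read in a library when it has more than 3 counts there. KO libraries 1 to 5 had 3, 3, 5, 3 and 4 of the 10 members at that level, and WT libraries 1 to 5 had 7, 8, 8, 8 and 8. Apart from H2-K1 and H2-D1, which were in all, the KO libraries held different members. KO library 1 added Tapbp, library 2 Tap1, library 3 Tapbp, Erap1 and Nlrc5, library 4 Tap2, and library 5 Tapbp and Erap1. Across all 7490 genes tested, 18.04 to 45.43% were read in a given KO library and 96.49 to 99.31% in a given WT library. Those genes had passed a count filter that the WT libraries alone can meet, so this contrast is partly set by the filter. No KO library thus held more than a part of the members beyond the classical heavy chains.

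**Figure D2:**
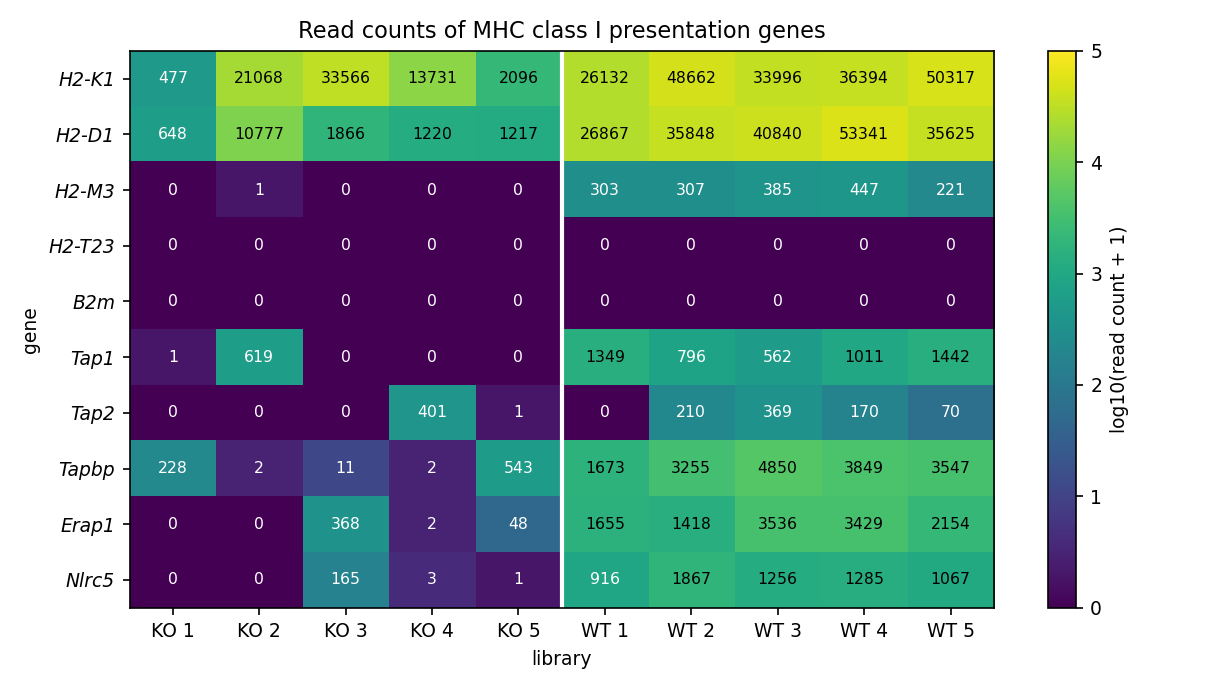
Read counts of the 10 class I presentation genes (rows) in the 5 KO and 5 WT libraries (columns); colour is log10(count + 1) and the printed number is the count. H2-K1 and H2-D1 are counted in all 10 libraries, H2-M3 has 1 count in all KO libraries together, and H2-T23 and B2m are at 0 throughout.

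Of the 8 members that could be tested by edgeR's quasi-likelihood test with Benjamini-Hochberg adjustment over all genes, H2-M3 fell in KO, none rose, and 7 did not pass the adjusted threshold of 0.05. Of all genes tested, 27.1% were called lower in KO and 1.5% higher, so 1 of 8 lower is no more than genes at large showed. No member was higher at an unadjusted p under 0.05 in edgeR either; DESeq2 called 0 members higher after adjustment and 1 at an unadjusted p under 0.05, and limma's voom called 0. The median log2 fold change was −0.48 over the 8 members and −0.47 over all genes tested. A permutation test (exact, two-sided) on log2(CPM + 1), also adjusted over all genes, called H2-M3 and Nlrc5, where 33.2% of all genes were called. Its smallest possible p with 5 against 5 libraries is 0.00794, which 29.7% of genes reached. No member was higher in every KO library than in every WT library, a pattern seen for 0.774% of genes.

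**Figure D3:**
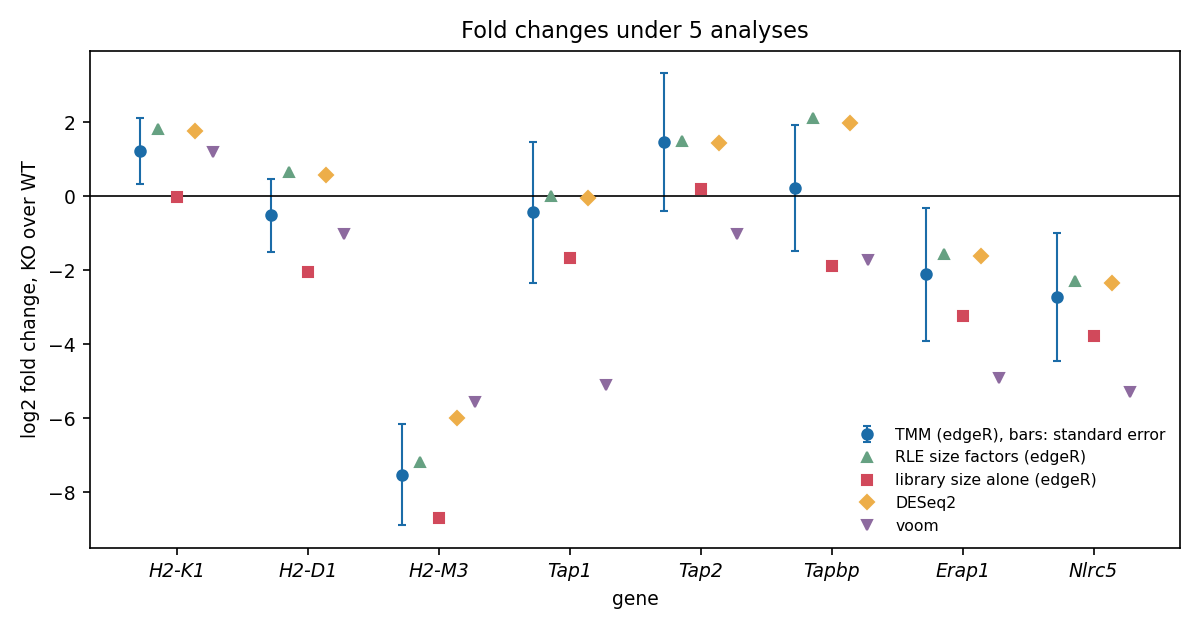
Log2 fold change (KO over WT, y axis) of the 8 tested members (x axis) under 5 analyses; bars are the standard error of the edgeR estimate with TMM scaling. H2-M3 is between −8.69 and −5.57 in all 5 analyses, while H2-K1, H2-D1, Tap2 and Tapbp lie on both sides of 0.

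H2-K1 encodes the classical heavy chain H2-K and lies on chromosome 17 at 33996017 to 34000347 (GRCm38, minus strand, ENSMUSG00000061232, protein coding, no other gene in its span). Its counts were 477, 21068, 33566, 13731 and 2096 in KO libraries 1 to 5 and 26132, 48662, 33996, 36394 and 50317 in WT libraries 1 to 5. TMM-scaled, these were 543.1, 3058, 4448, 1894 and 888.6 CPM in KO and 724.4 to 1108 CPM in WT. KO libraries 2, 3 and 4 were above every WT library, KO library 1 was below every one, and KO library 5 was among them. The means were 2167 ± 1608 CPM in KO and 930.4 ± 169.6 CPM in WT (SD, n = 5 each). The edgeR log2 fold change was 1.22 (SE 0.88, adjusted p = 0.361) and the permutation test gave p = 0.183 (exact, adjusted p = 0.305). By library size alone the means were 1654 ± 1503 CPM in KO and 1664 ± 420.1 CPM in WT and the log2 fold change was −0.01, so the direction of H2-K1 depends on the scaling. Without KO libraries 1 and 5, H2-K1 passed the edgeR test with a log2 fold change of 1.71 (adjusted p = 0.017).

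H2-D1, the heavy chain of H2-D, lies on the same chromosome at 35262730 to 35267499 (plus strand, ENSMUSG00000073411, protein coding, no other gene in its span). It had 648, 10777, 1866, 1220 and 1217 counts in KO libraries 1 to 5 and 26867, 35848, 40840, 53341 and 35625 in WT libraries 1 to 5. After TMM scaling the KO libraries stood at 737.8, 1564, 247.3, 168.3 and 515.9 CPM and the WT libraries at 744.8 to 1187 CPM. KO library 2 was above every WT library and the other 4 KO libraries were below, with library 1 just under the lowest WT library. The means were 646.8 ± 560.3 CPM in KO and 926.7 ± 218.1 CPM in WT (SD, n = 5 each). The edgeR log2 fold change was −0.52 (SE 0.98, adjusted p = 0.755) and the permutation p was 0.151 (exact, adjusted p = 0.267). The fold change turned to 0.66 with RLE size factors and to 0.58 with DESeq2. In the permutation test the difference passed without KO library 2 (adjusted p = 0.0323) and with library-size scaling (adjusted p = 0.0375).

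The rank of a gene within its library needs no scaling. By counts, H2-K1 was gene number 318, 52, 13, 89 and 327 in KO libraries 1 to 5 and number 31 to 50 in WT. H2-D1 was number 260, 133, 823, 1023 and 523 in KO libraries 1 to 5 and number 23 to 49 in WT. H2-D1 therefore stood further down the list in every KO library than in any WT library, and H2-K1 did not. Of the 498 tested genes with more than 3 counts in every library, the set in which ranks can be compared, 11.6% showed the same pattern as H2-D1.

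The balance of the classical heavy chains was near even in WT and varied widely in KO. H2-K1 had 0.736, 1.96, 17.99, 11.25 and 1.72 counts for each H2-D1 count in KO libraries 1 to 5, and 0.973, 1.36, 0.832, 0.682 and 1.41 in WT libraries 1 to 5. KO libraries 2 to 5 were above every WT library and KO library 1 lay within the WT range. On the log2 scale (counts + 1) the ratio was 1.79 ± 1.95 in KO and 0.02 ± 0.45 in WT (SD, n = 5 each), a difference of 1.78. A two-sided exact permutation test of this ratio gave p = 0.0714 (adjusted over 3 ratios, 0.214). KO library 1 decided this: without it the difference was 2.34 and the adjusted p 0.0238. Windows of 50 bases shared with other genes made up 9.63% of the H2-K1 exons and 12.8% of the H2-D1 exons, and windows of 100 bases 0.957% and 3.59%, so reads in those stretches may have been dropped or placed at a relative.

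**Figure D4:**
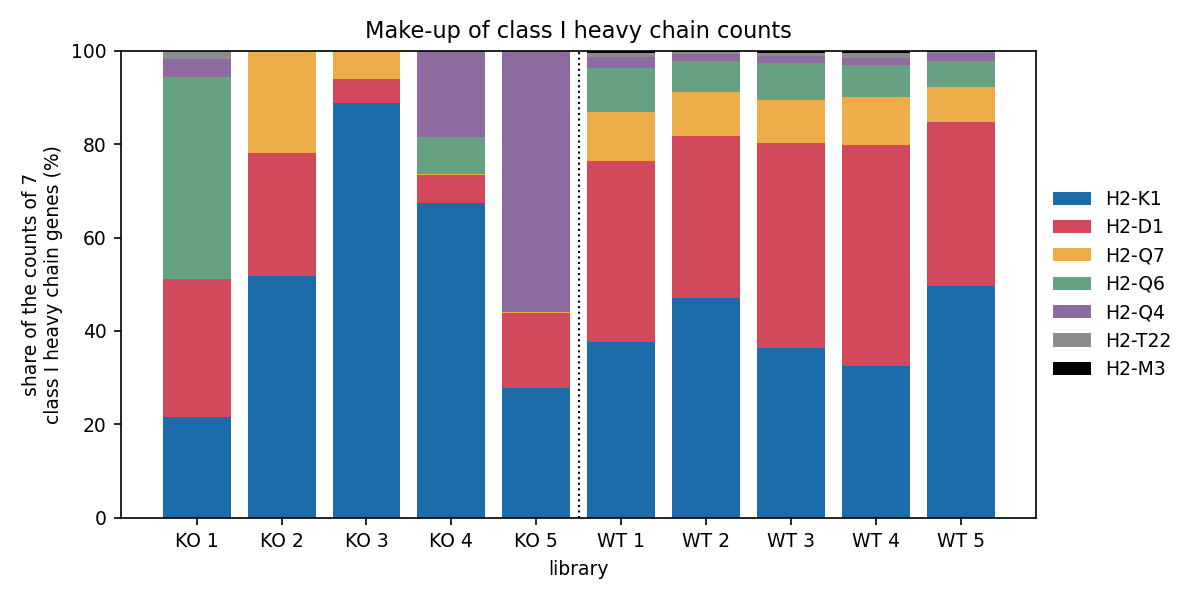
Share of the counts of 7 class I heavy chain genes held by each gene (y axis, percent) in the 5 KO and 5 WT libraries (x axis). The WT libraries look alike, with H2-K1 at 32.4 to 49.6% and H2-D1 at 34.7 to 47.5%, while the KO libraries differ, with H2-Q6 at 43.3% in library 1, H2-Q7 at 21.8% in library 2, H2-K1 at 88.9% in library 3 and H2-Q4 at 56.0% in library 5.

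H2-D1 and H2-M3 each took a smaller share of heavy chain counts in every KO library than in any WT library. By TMM-scaled CPM, which is another measure, 28.9% of all genes tested were lower in every KO library than in every WT library. The 7 heavy chain genes that could be tested were H2-K1, H2-D1, H2-Q4, H2-Q6, H2-Q7, H2-T22 and H2-M3. Among them H2-D1 held 29.4, 26.4, 4.94, 5.99 and 16.1% in KO libraries 1 to 5 and 40.0 ± 5.56% in WT (34.7 to 47.5%, SD, n = 5). H2-M3 held at most 0.00245% in KO and 0.218 to 0.437% in WT. H2-K1 held 21.6, 51.7, 88.9, 67.4 and 27.8% in KO libraries 1 to 5 and 40.7 ± 7.36% in WT. The genes that filled the rest varied between the KO libraries. The Qa family gene H2-Q6 held 43.3% in KO library 1, H2-Q7 held 21.8% in library 2 and 5.83% in library 3, and H2-Q4 held 18.4% in library 4 and 56.0% in library 5. In WT, H2-Q7 held 9.34 ± 1.16%, H2-Q6 7.28 ± 1.41% and H2-Q4 1.70 ± 0.428%. Windows of 50 bases shared with any other gene, on either strand, cover 36.4% of H2-Q4, 35% of H2-Q6, 26.5% of H2-Q7 and 53.5% of H2-T22. The partner that shared most was H2-Q7 for H2-Q6 (13.9%), H2-Q10 for H2-Q7 (14%) and H2-T10 for H2-T22 (31.2%). For H2-Q4 it was Gm11131 (15.3%), which overlaps H2-Q4 on the opposite strand. The split of counts among these genes is therefore uncertain. Summed over the 7 genes, the level was 3886 ± 1492 CPM in KO and 2300 ± 288.1 CPM in WT with TMM, and 2692 ± 1714 against 4089 ± 695.8 CPM by library size, so the direction of the sum also depends on scaling.

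H2-M3 encodes a nonclassical heavy chain that presents N-formylated peptides. It lies on chromosome 17 at 37270220 to 37274484 (plus strand, ENSMUSG00000016206). Its counts were 0, 1, 0, 0 and 0 in KO libraries 1 to 5 and 303, 307, 385, 447 and 221 in WT libraries 1 to 5. The groups did not overlap. Per scaled library size, WT was 198.4-fold above KO (95% counting interval 35.57 to 7843, for counting error only, since reads are not independent molecules). The fitted log2 fold change was −7.52 (SE 1.37, adjusted p = 0.00163), and the permutation test gave the smallest p it can (0.00794, exact, adjusted p = 0.0268). At the WT level, 7.14 to 61.4 counts would have fallen in each KO library. Yet absence was frequent at this level: of the 2409 tested genes at 5 to 20 CPM in WT by library size, where H2-M3 stood at 14.2, 39.9% were not read in any of the 5 KO libraries and 44.3% were called lower. H2-M3 kept its direction and its call in each of the 20 other analyses, with log2 fold changes of −10.69 to −5.29.

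H2-T23, the heavy chain of Qa-1, and B2m, the light chain shared by all class I molecules, were at 0 in all 10 libraries and are treated as not measured. H2-T23 is on chromosome 17 at 36029773 to 36032855 (minus strand), and all of its 2889 exon bases lie inside the span of A930015D03Rik on the opposite strand. B2m is on chromosome 2 at 122147686 to 122153083 (plus strand), wholly inside the span of Patl2 on the opposite strand and outside its exons. Of 690 protein-coding genes with all exons in another gene's span and none in its exons, 680 (98.6%) were at 0 in every library, against 40.4% of 11791 genes without overlap. Patl2 itself had 0, 11031, 689, 1 and 2 counts in KO libraries 1 to 5 and 2076, 769, 158, 549 and 811 in WT libraries 1 to 5. The table thus holds no count for B2m, and no ratio to B2m could be formed. Whether its reads were dropped or placed elsewhere was not tested.

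Tap1 and Tap2 encode the subunits of the peptide transporter, and no KO library had more than 3 counts of both. Tap1 (chromosome 17, 34187553 to 34197225, plus strand) had 1, 619, 0, 0 and 0 counts in KO libraries 1 to 5 and 1349, 796, 562, 1011 and 1442 in WT libraries 1 to 5. KO library 2 held 99.84% of the KO counts and stood above every WT library at 89.8 CPM, while the other 4 were below every WT library. Tap2 (chromosome 17, 34203527 to 34216321, plus strand) had 0, 0, 0, 401 and 1 counts in KO libraries 1 to 5 and 0, 210, 369, 170 and 70 in WT libraries 1 to 5. KO library 4 held 99.75% of the KO counts of Tap2, and WT library 1 was at 0 too. Of the Tap2 exons, 57.4% lie in the spans of other genes on the opposite strand, which makes its counts uncertain. Tap1 stood at 18.2 ± 40.1 CPM in KO and 24.9 ± 9.30 CPM in WT, and Tap2 at 11.2 ± 24.7 and 4.09 ± 4.11 CPM (SD, n = 5 each). For Tap1 the log2 fold change was −0.45 (SE 1.90, adjusted p = 0.897) and the permutation p 0.0476 (exact, adjusted p = 0.107). For Tap2 it was 1.46 (SE 1.86, adjusted p = 0.625), with a permutation p of 0.683 (exact, adjusted p = 0.795). Single libraries decided both values: without KO library 2 the change of Tap1 was −7.51 (adjusted p = 0.011), and without KO library 4 that of Tap2 was −5.46 (adjusted p = 0.0473). The log2 ratio of Tap1 to Tap2 was 0.12 ± 6.38 in KO and 3.97 ± 3.84 in WT (exact permutation p = 0.278, adjusted p = 0.278).

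Tapbp, which encodes tapasin, the bridge between TAP and the empty heavy chain, split the KO libraries. It lies on chromosome 17 at 33915899 to 33929292 (plus strand). Its counts were 228, 2, 11, 2 and 543 in KO libraries 1 to 5 and 1673, 3255, 4850, 3849 and 3547 in WT libraries 1 to 5. KO libraries 1 and 5 were above every WT library after scaling, and KO libraries 2, 3 and 4 were below every one. The means were 98.4 ± 134.2 CPM in KO and 83.7 ± 34.9 CPM in WT (SD, n = 5 each), with a log2 fold change of 0.23 (SE 1.70, adjusted p = 0.944) and a permutation p of 0.167 (exact, adjusted p = 0.285). Set against H2-K1 in the same library (log2, counts + 1), Tapbp was at −1.06, −12.78, −11.45, −12.16 and −1.95 in KO libraries 1 to 5 and at −3.96 to −2.81 in WT (exact permutation p = 0.167, adjusted p = 0.25). KO libraries 2, 3 and 4, where H2-K1 was above every WT library, were thus those with hardly any Tapbp. Without KO libraries 1 and 5 Tapbp was lower, with a log2 fold change of −6.99 (adjusted p = 0.00929). Exon bases in the spans of other genes make up 33.1% of Tapbp.

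Erap1 encodes the aminopeptidase that trims peptides in the endoplasmic reticulum (chromosome 13, 74639568 to 74693201, plus strand). It had 0, 0, 368, 2 and 48 counts in KO libraries 1 to 5 and 1655, 1418, 3536, 3429 and 2154 in WT libraries 1 to 5. KO library 3 fell within the WT range after scaling and the other 4 KO libraries were below it. The level was 13.9 ± 21.4 CPM in KO and 60.0 ± 28.4 CPM in WT (SD, n = 5 each), a log2 fold change of −2.11 (SE 1.797, adjusted p = 0.448), with a permutation p of 0.0317 (exact, adjusted p = 0.0839). The permutation test passed without KO library 3 (adjusted p = 0.0306) and with library-size scaling (adjusted p = 0.0212), and voom called Erap1 lower (adjusted p = 0.0453). Of its exon bases 11.5% are shared with Cast on the opposite strand.

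Nlrc5, the class I transactivator, was below every WT library in all 5 KO libraries (chromosome 8, 94434356 to 94527272, plus strand). It had 0, 0, 165, 3 and 1 counts in KO libraries 1 to 5 and 916, 1867, 1256, 1285 and 1067 in WT libraries 1 to 5. KO library 3 held 97.63% of the KO counts and reached 21.9 CPM, just under the lowest WT library at 23.5 CPM. The means were 4.54 ± 9.69 CPM in KO and 30.7 ± 7.38 CPM in WT (SD, n = 5 each). The permutation test gave its smallest p (0.00794, exact, adjusted p = 0.0268), whereas the edgeR log2 fold change of −2.73 (SE 1.72) did not pass (adjusted p = 0.287). Without KO library 3 edgeR called it (−6.85, adjusted p = 0.0067), and voom called it with all libraries (−5.30, adjusted p = 0.0213). Without any 1 of the WT libraries the permutation test lost its call (adjusted p of 0.0511 to 0.0525). Every KO library was below every WT library for 28.9% of all genes tested. H2-K1 and H2-D1 were counted in the 4 KO libraries where Nlrc5 had at most 3 counts.

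How often a member was missing in KO followed its level in WT, as it did for genes at large. By library size, WT levels were 1664 CPM for H2-K1, 1645 for H2-D1, 148.1 for Tapbp, 105.2 for Erap1, 54.4 for Nlrc5, 43.7 for Tap1, 14.2 for H2-M3 and 7.17 for Tap2. In that order the genes had at most 3 counts in 0, 0, 2, 3, 4, 4, 5 and 4 KO libraries. Of the 8 members with a count, 5 were missing in at least 3 KO libraries, 4 in at least 4, and 2 were read in every KO library, where the shares of all tested genes were 70.9%, 51.2% and 7.06%. Of the 67 tested genes at 1000 CPM or more in WT, 97% were read in every KO library, so the steady presence of H2-K1 and H2-D1 is shared with genes of their level. At 100 to 200 CPM in WT, where Tapbp, Erap1 and Maf lie, the mean was 1.76 KO libraries, against 2 for Tapbp, 3 for Erap1 and 4 for Maf. At 50 to 100 CPM the mean was 2.73, against 4 for Nlrc5, and 27.3% of 1168 genes were missing from at least 4. For Tap1, in the band of 20 to 50 CPM, 61.3% of 2046 genes were missing as often.

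**Figure D5:**
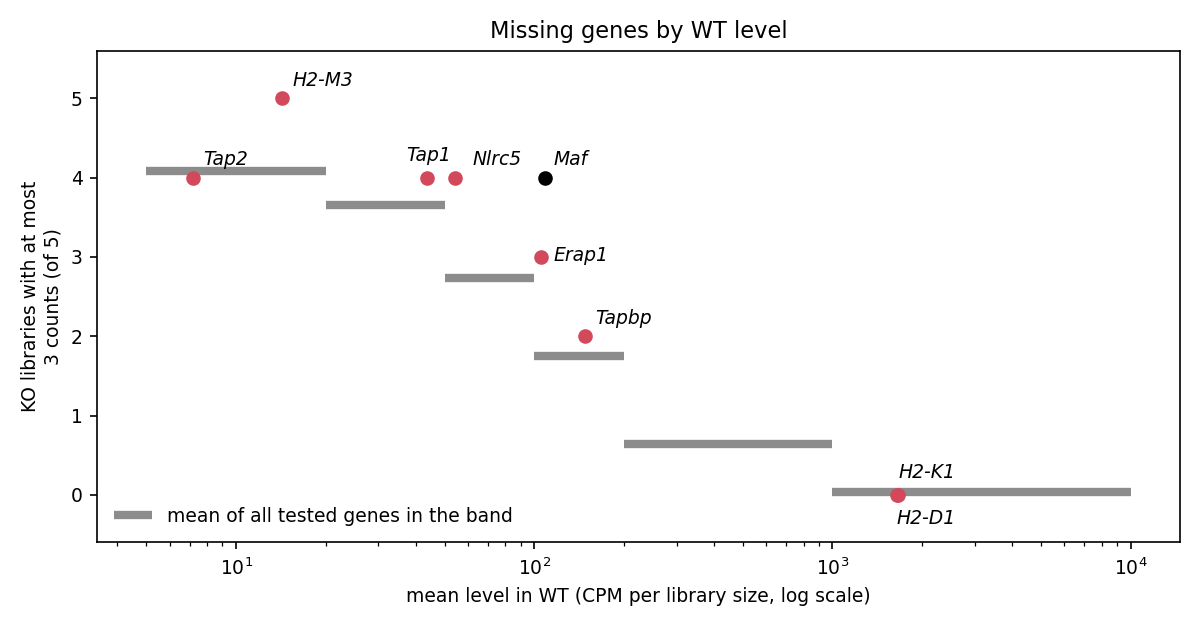
Number of KO libraries (of 5) in which a gene had at most 3 counts (y axis) against its mean WT level in CPM per library size (x axis, log scale); points are the members and Maf, grey lines the mean of all tested genes in each band of WT level. H2-K1 and H2-D1 are at 0 near the right end, H2-M3 is at 5, and the other members lie close to or above the grey line of their band.

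Per kilobase of exon, the order of levels in WT began with H2-D1 at 359.3 ± 84.6 and H2-K1 at 316.7 ± 57.7 TMM-scaled CPM per kb (SD, n = 5 each), which overlapped each other. Tapbp followed at 23.1 ± 9.63, clear of the heavy chains. Erap1 stood at 8.25 ± 3.90, H2-M3 at 5.66 ± 1.72, Tap1 at 4.54 ± 1.70, Nlrc5 at 3.61 ± 0.869 and Tap2 at 1.08 ± 1.09 CPM per kb, each overlapping its neighbour in the order. Exon lengths were not corrected for bases in the spans of other genes, 57.4% for Tap2 and 33.1% for Tapbp. Where such bases go uncounted, the level per kb is too low. Set against 1 kb of the whole gene span, since total RNA also holds unspliced transcripts, the order in WT was H2-K1, H2-D1, Tapbp, Tap1, H2-M3, Erap1, Nlrc5 and Tap2. In KO the exon order was H2-K1 (737.4 ± 547.3 CPM per kb), H2-D1 (250.8 ± 217.3), Tapbp (27.1 ± 37.0), Tap1 (3.32 ± 7.32), Tap2 (2.95 ± 6.53), Erap1 (1.91 ± 2.94), Nlrc5 (0.535 ± 1.14) and H2-M3 (0.0202 ± 0.0451). The KO spread of each gene from Tapbp down exceeded its mean, so their order in KO is not resolved.

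Profiles most like those of the classical heavy chains over the 10 libraries were sought among 496 other genes with more than 3 counts in every library, by the root mean square difference of centred log2(CPM + 1). Nearest to H2-K1 were Laptm5 (0.46), Serbp1 (0.60) and Hspa8 (0.62), where the median gene was at 1.78. Nearest to H2-D1 were Elmo1 (0.61), Ptp4a2 (0.66) and Iqgap1 (0.78), with a median of 1.85. H2-D1 came only at place 173 for H2-K1, and H2-K1 at place 140 for H2-D1, with a difference of 1.54 between them.

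Of the further genes of peptide supply, 9 of 11 in the table could be tested, and 3 fell in KO while none rose, where 27.1% of all tested genes were lower and 1.5% higher. Psmb8 and Psmb9 encode inducible subunits of the immunoproteasome, and Sec61a1 encodes a subunit of the translocon. Psmb9 had 0, 0, 0, 1 and 1 counts in KO libraries 1 to 5 and 708, 479, 1155, 1464 and 638 in WT libraries 1 to 5, which is 265.1-fold higher in WT per scaled library size (95% counting interval 73.4 to 2190, edgeR adjusted p = 0.00218). Psmb8 was at 0 in all KO libraries and had 19, 114, 65, 126 and 19 counts in WT libraries 1 to 5, so KO was at least 13.6-fold lower than WT when 3 counts are granted to the whole KO group (adjusted p = 0.00205). It missed the threshold with voom (adjusted p = 0.063), and 55.5% of its exons lie in the span of another gene. Psmb8 stood at only 1.6 CPM in WT, and was not tested after thinning or with any 1 of the WT libraries left out. Absence from KO was frequent at low WT levels, as given for H2-M3. At 20 to 50 CPM in WT by library size, where Psmb9 lay, 24.4% of tested genes were not read in any KO library and 32.1% were called lower. Sec61a1 had 0, 1, 1, 5 and 1 counts in KO libraries 1 to 5 and 1052 to 1637 in WT (log2 fold change −6.80, SE 1.63, adjusted p = 0.00355). Psme2, a subunit of the proteasome activator PA28, had 5155 KO counts, 5151 of them from library 5 (log2 fold change 3.98, SE 2.28, adjusted p = 0.235), and without that library the change was −7.31 (adjusted p = 0.00441). The median log2 fold change of the 9 genes was 0.02, against −0.47 for all genes, which were not matched for WT level.

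None of the 6 tested genes of peptide loading and protein folding in the endoplasmic reticulum passed edgeR's test in either direction. Of all genes tested, 27.1% were called lower and 1.5% higher. At an unadjusted p under 0.05, 0 of the 6 were lower and 1 higher. DESeq2 called 1 higher, where it called 408 of the 7490 genes tested in edgeR higher. With voom 1 was called lower, against 33.2% of all genes. Calr, encoding the chaperone calreticulin, had 231, 13411, 1198, 227 and 4 counts in KO libraries 1 to 5 and 1506 to 2466 in WT, with a log2 fold change of 3.34 (SE 1.54, adjusted p = 0.129). KO library 2 alone held 13411 of its 15071 KO counts, and without it the change was 1.59 (adjusted p = 0.386). Calr passed with DESeq2 (4.06, adjusted p = 0.0107) and without KO library 5 (3.73, adjusted p = 0.0363). With voom it was at 1.08 (adjusted p = 0.598). Hspa5, the chaperone BiP, showed the same lead of KO library 2 with 29944 of 36043 KO counts (2.28, SE 1.31, adjusted p = 0.238), and passed without KO libraries 1 and 5 (2.80, adjusted p = 0.0236). Canx (calnexin) was at 1.78 (SE 1.27, adjusted p = 0.352) and Pdia3 (the disulfide isomerase ERp57 of the loading complex) at −2.12 (SE 1.45, adjusted p = 0.33). The median was 1.71, against −0.47 for all genes tested, which were not matched for WT level. The 10 ILC2 markers had a median of 1.135. By library size alone Calr was at 2.01, Hspa5 at 0.93, Canx at 0.22 and Pdia3 at −3.33, so no shift of the set can be read. Tapbpl was at 0 throughout and lies inside another gene's span.

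Among 17 other class I and class I-like heavy chain genes, 13 had a count and 5 could be tested, of which 1 fell and none rose, against 27.1% and 1.5% of all genes tested. Absence from KO was frequent at low WT levels, as given for H2-M3. Mr1, which presents vitamin B metabolites to MAIT cells, was at 0 in all KO libraries and had 51, 392, 411, 416 and 59 counts in WT libraries 1 to 5. With 3 counts granted to the KO group, it was lower in KO by at least 52.9-fold (adjusted p = 0.00163 in edgeR). H2-Q4 had 82, 1, 51, 3749 and 4218 counts in KO libraries 1 to 5 and 1298 to 1743 in WT (log2 fold change 3.66, SE 1.71, adjusted p = 0.134). It passed with DESeq2 (4.47, adjusted p = 0.0123), without KO library 2 (adjusted p = 0.0319) and without KO library 3 (adjusted p = 0.049). Without KO library 5 it was at 2.12 (adjusted p = 0.33), and with voom at 0.19 (adjusted p = 0.941). H2-Q6 (0.66, adjusted p = 0.811) and H2-T22 (−0.84, adjusted p = 0.793) did not pass, and all 40 KO counts of H2-T22 were in KO library 1. The median of the 5 was 0.57.

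Of 21 regulators of class I genes, 16 could be tested, and none rose, where 1.5% of all genes tested were called higher. Jak1, a kinase of interferon and cytokine receptors, was counted in every library, with 384, 24570, 5715, 8512 and 2681 counts in KO libraries 1 to 5 and 10001 to 17306 in WT (log2 fold change 2.08, SE 0.99, adjusted p = 0.14). It passed without KO library 1 (2.37, adjusted p = 0.02) and with DESeq2 (2.71, adjusted p = 0.0041). Ifnar2, a chain of the type I interferon receptor, was at 3.68 (SE 1.99, adjusted p = 0.206) and passed with DESeq2 (4.11, adjusted p = 0.0398). Rela, the NF-kappa B subunit p65, was at −2.47 (SE 1.67, adjusted p = 0.324), and KO library 4 gave 158 of the 161 Rela counts in KO. With that library left out, Rela was lower (−7.36, adjusted p = 0.00525). The median of the 16 was 0.59, against −0.47 for all genes tested, which were not matched for WT level. None of 14 genes for receptors that bind class I could be tested, and 5 of them had any count.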

How the data were processed

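Per the labels' protocols, RNA was extracted with the RNeasy Plus Micro Kit and sequenced from Illumina TruSeq Stranded total RNA libraries. The deposited values are raw read counts per gene, 1 column per library. STAR 2.6.0c, SAMtools 1.8, HTSeq 0.9.1 and genome build GRCm38 are named in the submitters' processing notes; the annotation release and strand setting: not given in the sources used here. Genotype labels define the groups. Positions and overlaps come from GENCODE vM21 (54809 of 54838 identifiers matched) and promoters from RefSeq.

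The members and gene lists were chosen with earlier results of these data known. Named genes are all members, Maf, up to 4 genes by smallest p of each pathway list, and the 3 nearest profiles. A gene that this rule names is not reported here. The KO against WT test was edgeR 4.0.16 in R 4.3.3: filterByExpr (minimum count 10), TMM, quasi-likelihood F test, Benjamini-Hochberg over 7490 genes, threshold 0.05. Libraries of a single genotype can meet this filter, as the WT libraries did for H2-M3. Shares of all genes tested, such as those missing or lower in KO, therefore depend on the filter. A standard error is the log2 fold change divided by the square root of F. CPM are TMM-scaled unless library size is named. Exact permutation tests (252 arrangements, two-sided, scaled to log2(CPM + 1)) were run on every tested gene. Ratios used counts + 1. Of 6 planned ratios, 4 with B2m gave no value, and Tapbp to H2-K1 was added after seeing the data. A count of 3 corresponds to 0.398 to 3.42 CPM in KO and 0.0642 to 0.0872 CPM in WT libraries; a value of 0 means no more than that. Within groups no pair of libraries agreed within sampling noise (chi-square per degree of freedom of at least 161.7). The procedure was tested on simulated counts drawn for both genotypes from the WT means with a common dispersion. That simulation did not mimic the genes missing from KO libraries, so it cannot tell how the procedure handles them. Alternatives were RLE, library-size and shared-gene TMM scaling, DESeq2 1.42.0, voom (limma 3.58.1) with and without quality weights, other filters, thinning, and libraries left out.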

Additional observations from a re-analysis of the deposited data

Results flagged for a closer look

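Of 22 groups of 5 libraries examined, 4 had a library far from the other 4 by Dixon's criterion. Its usual rate of about 1 in 20 holds for normally distributed values. The flagged groups, mostly at or near 0, are not of that kind, so no excess over that rate can be read. All 4 flagged libraries were the highest of the KO group, in TMM-scaled CPM. Tap1 stood at 89.85 CPM in KO library 2 and at 0 to 1.14 CPM in the other KO libraries. Tap2 stood at 55.32 CPM in KO library 4, against 0 to 0.424 CPM in the others. Nlrc5 stood at 21.87 CPM in KO library 3, against 0 to 0.424 CPM in the others. H2-M3 stood at 0.1452 CPM in KO library 2, which is a single count, and at 0 in the others. With the other 4 libraries at 0, any count meets the criterion.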

How the results depend on the processing

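Across all genes, 112 were higher and 2027 lower in KO. The higher count was 193 with RLE, 49 by library size, 1470 with DESeq2, 71 with voom, 2345 with no filter, 297 with at least 10 counts in at least 3 libraries, 51 after thinning, 348 without KO libraries 1 and 5, and 82 to 333 with single libraries left out. The lower count was 3179 with at least 10 counts in at least 3 libraries, 1158 after thinning, 3291 without KO libraries 1 and 5 and 1734 to 3350 with single libraries left out. Lower calls were 94.8% of all calls, 63.4% with DESeq2 and 56.3% with no filter. Members called lower numbered 1, and 3 with voom, 4 with voom and quality weights, 2 without KO libraries 1 and 5, and 1 to 2 with single libraries left out; members called higher numbered 0, and 1 without KO libraries 1 and 5. H2-M3 was called in each. The median of all genes shifted by −1.36 by library size, 0.56 with RLE, −0.81 with TMM from shared genes, −3.11 with voom, −2.95 with quality weights, 1.71 with DESeq2 (on 19014 genes) and −2.06 without KO libraries 1 and 5. The cause of these moves was not tested.

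Log2 fold changes reversed as follows: H2-D1 0.66 with RLE and 0.58 with DESeq2; H2-K1 −0.01 by library size (−0.78 in the permutation test); Tap1 0.24 without KO libraries 1 and 5; Tap2 −1.01 with voom, −1.83 with quality weights and −5.46 to 2.18 with single libraries left out. Tapbp was −1.89 by library size, −0.54 with TMM from shared genes, −1.72 with voom, −2.65 with quality weights, −0.06 with no filter, −6.99 without KO libraries 1 and 5 and −0.13 to 1.11 with single libraries left out. H2-Q6 was −1.97 by library size, −0.14 with TMM from shared genes, −2.07 with voom, −3.34 with quality weights, −1.16 without KO libraries 1 and 5 and −1.56 to 1.53 with single libraries left out. H2-T22 was 1.54 with RLE, 1.45 with DESeq2 and −11.69 to 0.12 with single libraries left out. Hspa5 was −0.44 with quality weights and Ifnar2 −0.69 with voom. Psme2 was −3.33 with voom, −3.01 with quality weights, −7.24 without KO libraries 1 and 5 and −7.31 to 4.76 with single libraries left out.

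Maf passed with voom (−7.23) and quality weights (−7.10), and ranged from −13.61 to −4.02 with single libraries left out. In the permutation test by library size, Erap1 (−4.71) and H2-D1 (−2.56) passed. With single libraries left out its differences were −4.62 to −3.21 for Erap1, −1.35 to −0.55 for H2-D1, −4.35 to −2.72 for Tap1 and −4.70 to −3.57 for Nlrc5, and the H2-K1 to H2-D1 ratio differed by 1.18 to 2.34. No paired analysis was possible because the replicate numbers only follow the order of the records. Genes under about 100 CPM in WT were often missing from KO libraries, for a cause that was not tested, and missing the threshold there does not mean that a gene kept its level.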
